A study of Mus musculus with 111 samples.

Results

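Transfer RNAs that carry alanine in the cytosol were followed across 6 mouse tissues and 4 diets. The members were the 10 entries of the deposited read-count table named tRNA-Ala-AGC-2, -3, -4, -6 and -7, tRNA-Ala-CGC-3, and tRNA-Ala-TGC-2, -5, -6 and -7. They are 10 of the 19 entries for cytosolic alanine tRNAs, and of 1268 entries in all. Small RNA was treated with polynucleotide kinase and sequenced by OTTR-seq, a library method that joins adapters during reverse transcription. The libraries comprised 19 of sperm, 18 of cauda epididymis, 19 of caput epididymis, 19 of testis, 19 of heart and 17 of liver, with 4 or 5 libraries in each of the 24 combinations of tissue and diet. The low-protein diet (LP, 10% protein, with sucrose in place of the missing mass) was set against its control diet (C, 18% protein). The high-fat diet (HF, 60% of calories from fat) was set against its own control (C_HF, 7.2% of calories from fat). The mice were group-housed and had been on their diet for 6 months, and the labels name no engineered allele, strain or age. Whether each library is a separate animal is not stated, and p-values therefore measure a spread between libraries that may be technical.

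The cytosolic alanine tRNAs are read by their anticodon, written here as DNA letters. AGC, CGC and TGC mark tRNAs that decode the GCN codons of alanine, and the first base of AGC is converted to inosine by the enzyme ADAT2/ADAT3, which widens its codon reading. A single synthetase, AARS1, charges all of them in the cytosol, and it recognises a G-U pair in the acceptor stem rather than the anticodon. Each anticodon is carried by several nearly identical gene copies, and fragments of tRNAs are an abundant small RNA of maturing and mature sperm.

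The RefSeq annotation of GRCm38.p6 lists 33 cytosolic alanine tRNA genes, 13 with anticodon AGC, 9 with CGC and 11 with TGC. Of these, 12 lie on chromosome 13 between 21222586 and 23438768 and 12 on chromosome X between 136357602 and 136590436. The AGC genes sit mainly on chromosome 13 (9 genes), and the CGC and TGC genes mainly on chromosome X (5 and 7 genes). Every gene is 72 or 73 bases long, so reads of different members can be compared without a length correction. RefSeq uses other names for the copies, and no member was assigned to a gene here. Mitochondria use a separate alanine tRNA, encoded on the minus strand of the mitochondrial genome at chrM:5018-5086 (GRCm38). It is shown, from the GENCODE M21 transcripts, because it is the counterpart against which the cytosolic family is set, with its TGC anticodon in capitals.
mt-tRNA-Ala: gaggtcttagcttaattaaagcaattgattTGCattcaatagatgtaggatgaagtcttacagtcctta

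The 10 members held 15971 reads, between 641 for tRNA-Ala-AGC-7 and 4751 for tRNA-Ala-AGC-4. They made up 91.2% of cytosolic alanine tRNA reads and 0.223% of all cytosolic tRNA reads. Of the other 9 alanine entries, tRNA-Ala-TGC-3 had the same count as tRNA-Ala-TGC-2 in every library, so the 2 entries list the same reads and only tRNA-Ala-TGC-2 was used. The other 8 had between 16 and 442 reads. Entries for the antisense strand of alanine tRNAs held 0 reads. The sources used here do not say how reads matching several copies were divided, and the counts of single copies are uncertain for that reason.

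Reads per library, over the 1042 entries kept after repeated listings were removed, ran from 827 to 1467880 with a median of 59904. Each of the 204 replicate pairs differed by more than sampling noise, with chi-square values of at least 1.54 per degree of freedom. Entries for the liver and heart microRNAs that would check those labels are not among the rows used here. The 276 kept piRNA precursors, which mark the male germ line, averaged 45426 ± 37949 RPM (reads of an entry scaled to a library of 1e6 reads) in testis (SD, n = 19), 6022 ± 3292 in sperm (n = 19) and 4351 ± 1868 in cauda (n = 18). In single libraries of liver, heart and caput they lay between 0 and 1283 RPM.

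A number in the column names splits the libraries in a way that matters for this family. The numbers are not explained in the labels and repeat across the table, so they cannot form a single series. Sperm, cauda, testis, control-diet heart and control-diet liver fill the numbers 1 to 66 without a repeat (65 libraries, here series 1). Caput, low-protein heart and the other 3 diets of liver fall between 11 and 56 without a repeat (37 libraries, series 2). The remaining 9 libraries, high-fat and high-fat control heart, have no number. This grouping of the numbers was made after the values were seen. Alanine tRNAs made up 0.0684% to 0.580% of cytosolic tRNA reads in the libraries of series 1, with a median of 0.218%. In series 2 the range was 0 to 0.0703% with a median of 0.0197%, and in the unnumbered libraries it was 0 to 0.0353%. The ranges of the series touch only at their ends. Caput is present in series 2 alone, and the control diet of liver and heart in series 1 alone, so for these groups a tissue or diet difference and a difference between the series cannot be told apart.

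**Figure D1:**
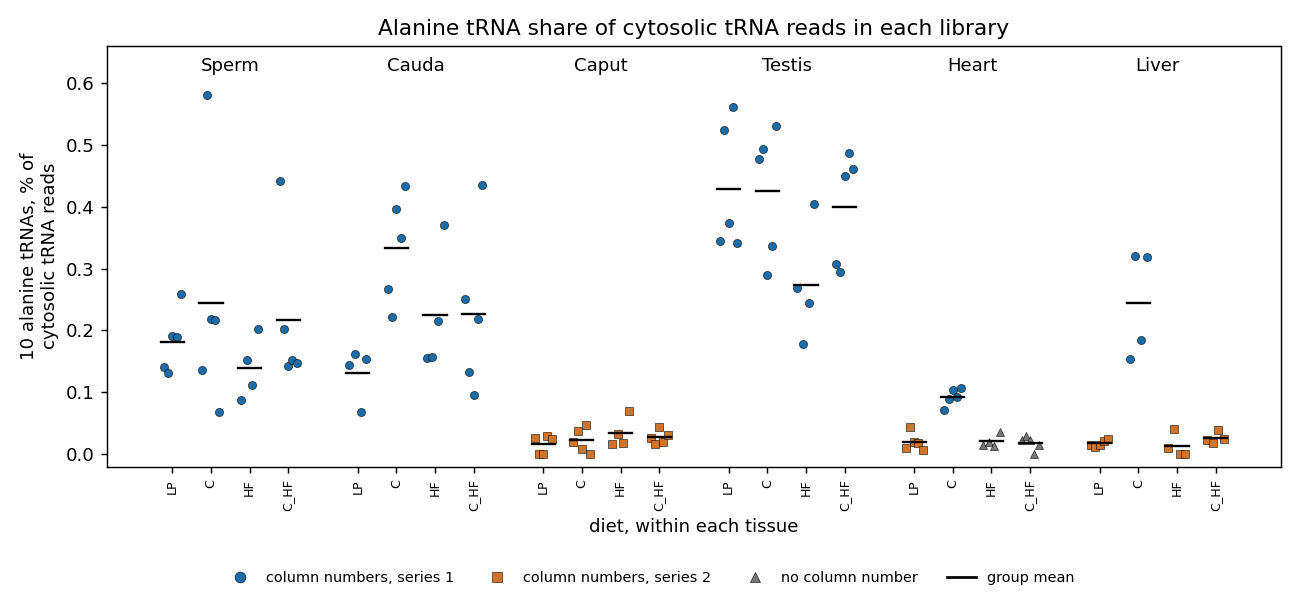
Reads of the 10 alanine tRNAs as a percentage of cytosolic tRNA reads, 1 point per library, by tissue and diet (n = 4 or 5 per column); lines are group means and the marker shows the series of column numbers. Series 1 libraries lie between 0.0684% and 0.580%, and series 2 and unnumbered libraries lie at or below 0.0703%.

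Across all diets, alanine tRNAs took 0.388% ± 0.110 of cytosolic tRNA reads in testis (SD, n = 19), 0.235% ± 0.116 in cauda (n = 18) and 0.199% ± 0.122 in sperm (n = 19). The share was 0.0719% ± 0.106 in liver (n = 17), 0.0389% ± 0.0352 in heart (n = 19) and 0.0247% ± 0.0176 in caput (n = 19). Cauda and sperm differed by less than the spread between libraries, and so did liver and heart, and heart and caput. Restricted to the control-diet libraries of series 1, the share was 0.244% ± 0.0881 in liver (n = 4), which falls within the range of cauda, and 0.0930% ± 0.0138 in heart (n = 5).

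Testis used a set of alanine tRNAs that was almost missing elsewhere. tRNA-Ala-TGC-5, the most abundant TGC member, had reads in 19 of 19 testis libraries, with a lowest level of 207, a median of 543 and a highest of 1375 RPM. In the other tissues it had 4 reads in sperm, 14 in cauda, 2 in heart, and 0 in caput and liver. No library outside testis exceeded 44.1 RPM, so the testis libraries did not overlap with any other. Over the summed libraries, 2597 reads in testis and 20 in the other 5 tissues gave a ratio of 715 per sequenced read, with an exact 95% interval of 462 to 1172 that covers counting error only.

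tRNA-Ala-CGC-3 was detected in 19 of 19 testis libraries, with a lowest level of 25.4, a median of 120 and a highest of 493 RPM. It had 923 reads in testis and 5 in all other tissues, a ratio of 1016 (434 to 3137). All 5 of those reads came from sperm and cauda. In heart, with 0 reads, its level was at least 1020-fold lower than in testis against a floor of 3 reads over the tissue, and in liver at least 321-fold lower. tRNA-Ala-TGC-6 had 1201 reads in testis and 16 elsewhere (ratio 413, 253 to 725), and was missing from 1 testis library, high-fat replicate 2, which held 6 alanine tRNA reads. tRNA-Ala-TGC-7 had 961 reads in testis and 11 elsewhere (ratio 481, 268 to 967) and lay between 98.8 and 460 RPM in testis. The highest value outside testis was 159 RPM in a high-fat control liver library, which stands for 1 read.

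These 4 passed the filter on low counts only through testis, the tissue in which they are high, so no test of that difference is given and the reads above stand as a description. The log2 fold changes of testis over the mean of the other tissues, fitted with edgeR on all libraries, were 7.67 ± 0.29 for tRNA-Ala-TGC-5 (SE), 6.77 ± 0.28 for tRNA-Ala-TGC-7, 6.49 ± 0.33 for tRNA-Ala-CGC-3 and 6.42 ± 0.30 for tRNA-Ala-TGC-6. Within series 1 they were 7.50, 6.82, 6.64 and 5.99 in the same order. These values depend on how 0 counts are handled and are no bounds. Of all 460 features tested, 54.8% were called higher in testis. A pair of alanine entries outside the 10 were also seen in testis. tRNA-Ala-TGC-8 had 201 reads and tRNA-Ala-CGC-4 had 16 reads, all in testis. In whole tissue, more cells of a type and more RNA per cell cannot be told apart.

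**Figure D2:**
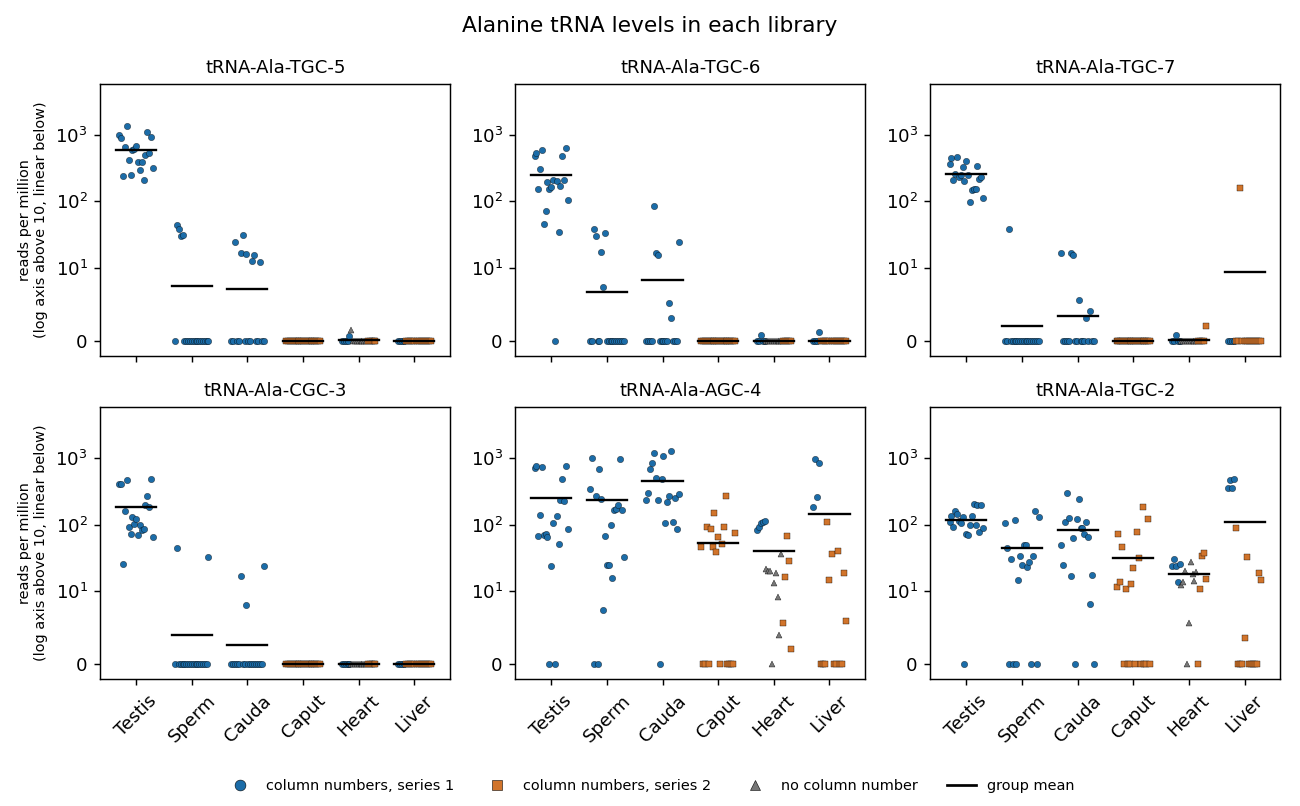
Level of 6 alanine tRNAs in every library in RPM, on an axis that is logarithmic above 10 and linear below; lines are tissue means and the marker shows the series of column numbers. TGC-5, TGC-6, TGC-7 and CGC-3 average 187 to 603.6 RPM in testis and are near 0 elsewhere, while AGC-4 and TGC-2 are found in every tissue.

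The makeup of the family differed between testis and every other tissue. TGC-5, TGC-6, TGC-7 and CGC-3 held 70.3% ± 6.82 of alanine tRNA reads in testis (SD, n = 18 libraries with at least 20 alanine reads). They held 4.75% ± 4.09 in sperm (n = 4), 3.43% ± 3.73 in cauda (n = 14), 0.434% ± 1.02 in heart (n = 10) and 0.00937% ± 0.0230 in liver (n = 6). Among libraries with at least 20 alanine reads, the lowest of testis stood at 62.2% and the highest of any other tissue at 12.5%. Below that cut, C replicates 3 and 5 of sperm stood at 50% of 6 and 2 alanine reads. C_HF replicate 3 of liver stood at 100% of 1 read. The 4 members were grouped because they are high in testis, so this share is a description and tests nothing. By diet, the share in testis was 67.9% ± 3.57 on LP and 67.7% ± 4.20 on C (n = 5 each). It was 67.8% ± 7.61 on HF (n = 3) and 77.0% ± 7.92 on C_HF (n = 5), and these groups overlapped.

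The AGC members were the main alanine tRNAs outside testis. Their share of alanine tRNA reads was 21.9% ± 7.88 in testis (SD, n = 18), against 89.3% ± 6.01 in sperm (n = 4), 87.9% ± 5.49 in cauda (n = 14), 78.1% ± 12.6 in heart (n = 10) and 69.5% ± 9.31 in liver (n = 6). No caput library reached 20 alanine reads. Over its 19 libraries caput gave 84 AGC reads of 100, or 84.0% (75.3% to 90.6%, exact 95% interval). The lone member with CGC, tRNA-Ala-CGC-3, held 9.01% ± 2.82 of alanine reads in testis and was not detected in heart, liver and caput. Among TGC members, tRNA-Ala-TGC-2 held 23.8% of the summed alanine reads in liver, 15.4% in heart and 4.70% in testis, and supplied 698 of the 700 TGC reads of liver. The choice of entries matters for these shares: counting every alanine entry as deposited, which adds 8 further alanine entries and lists the TGC-2 reads again under TGC-3, gives an AGC share of 48.9% in liver and 61.3% in heart.

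**Figure D3:**
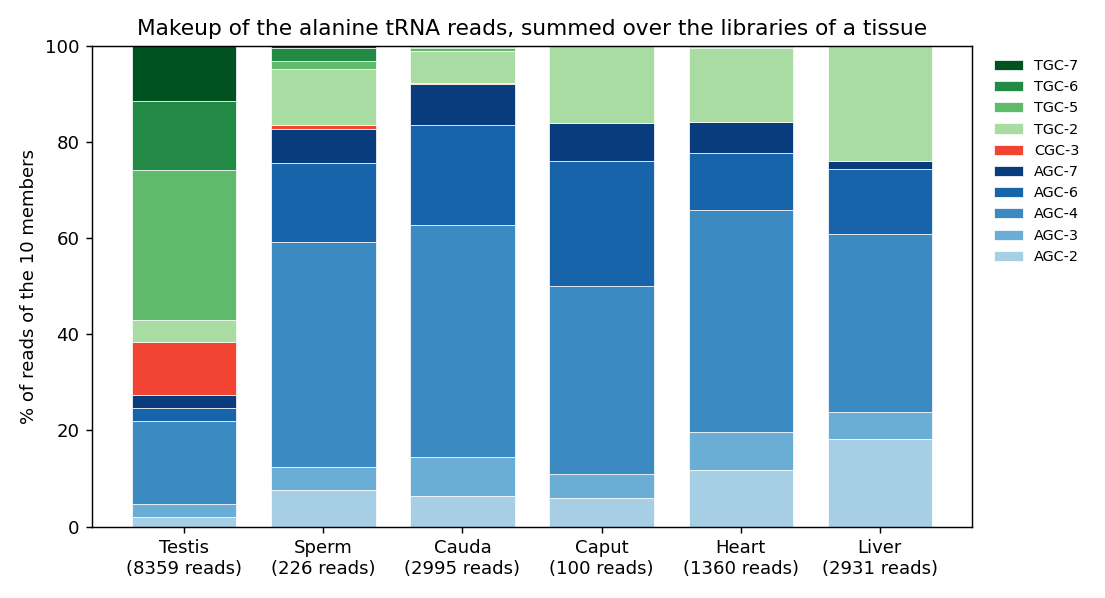
Share of each of the 10 members in the alanine tRNA reads summed over the libraries of a tissue (vertical axis, percent; number of reads under each bar). CGC-3, TGC-5, TGC-6 and TGC-7 make up 68.0% of the bar of testis, and AGC-4 is the largest part of the bar in each of the other tissues.

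tRNA-Ala-AGC-4 was the most abundant member outside testis. Its median was 282 RPM in cauda (0 to 1289), 165 in sperm (0 to 1015), 106 in testis (0 to 770), 46.6 in caput (0 to 274), 20.1 in heart (0 to 114) and 14.6 in liver (0 to 970). All tissues overlapped. tRNA-Ala-TGC-2 had a median over all diets of 112 RPM in testis (0 to 207) and of 68.8 in cauda (0 to 297). Its median was 30.2 RPM in sperm (0 to 163), 18.3 in heart (0 to 37.2), 11.6 in caput (0 to 184) and 3.65 in liver (0 to 494). These medians pool both series, and the 4 control-diet livers of series 1, at 358 to 494 RPM, were above every testis library. tRNA-Ala-AGC-7, the least abundant member, did not pass the filter of the tissue comparison, though it did in the diet comparisons of testis and cauda. Its mean was 85.0 ± 78.5 RPM in cauda (SD, n = 18), 39.6 ± 43.6 in testis and 24.3 ± 37.0 in sperm (n = 19 each), and below 7 RPM in the other tissues.

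In cauda 4 AGC members were called higher than in the mean of the other tissues by edgeR's quasi-likelihood test, where a call needs an adjusted p under 0.05 and a change of at least 1 on the log2 scale in either direction. With the libraries of all 6 tissues, tRNA-Ala-AGC-3 had a log2 fold change of 2.28 ± 0.30 (edgeR, adjusted p = 1.64e-11), AGC-6 of 2.07 ± 0.32 (1.29e-08), AGC-4 of 1.93 ± 0.32 (6.08e-08) and AGC-2 of 1.23 ± 0.35 (0.00134). Of all 460 features tested, 31.3% were called higher in cauda. AGC-7 was not tested here. Within series 1, AGC-6 at 1.53 ± 0.46 (adjusted p = 0.00360), AGC-3 at 1.23 ± 0.34 (0.00157) and AGC-4 at 1.21 ± 0.43 (0.0157) remained called higher in cauda, beside 25.5% of features. AGC-2 had a value of -0.20 ± 0.44 there and lost its call.

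In liver, tRNA-Ala-AGC-2 (1.63 ± 0.36, edgeR, adjusted p = 0.000116) and tRNA-Ala-TGC-2 (1.303 ± 0.34, 0.000981) were called higher than in the other tissues, 2 of 9 members beside 16.1% of features. Both were larger within series 1, at 2.75 ± 0.48 (adjusted p = 6.12e-06) and 2.66 ± 0.45 (2.35e-06), where liver is represented by its control-diet libraries and 9.23% of features were called higher. Without the control-diet libraries of liver and heart the value of TGC-2 was -0.83 and it was not called (adjusted p = 0.152), so its direction in liver rests on those libraries. tRNA-Ala-AGC-4 was not called in liver (-0.20 ± 0.40, adjusted p = 0.909).

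In heart, 1 member of 9, tRNA-Ala-AGC-6, was called lower than in the other tissues (-1.28 ± 0.40, edgeR, adjusted p = 0.00405), beside 31.3% of features. Its value within series 1 was -0.15 ± 0.62, without a call, and the call was also lost when any replicate number was left out (-0.61 to -0.997). In caput 4 members of 9 were called lower, beside 25.9% of features: AGC-2 (-2.09 ± 0.59, adjusted p = 0.00168), AGC-3 (-2.09 ± 0.57, 0.00127), TGC-2 (-1.26 ± 0.47, 0.0185) and AGC-4 (-1.26 ± 0.48, 0.0235). Caput has no library in series 1, so no value within it can be given. In testis, AGC-3 was called higher with all libraries (1.39 ± 0.31, adjusted p = 3.50e-05), beside 54.8% of features called higher, while within series 1 its value was -0.11 ± 0.38 (adjusted p = 0.808). There AGC-6 (-1.77 ± 0.43, adjusted p = 0.000187) and AGC-2 (-1.19 ± 0.37, 0.00335) were called lower in testis, beside 15.5% of features. AGC-4 was not called in testis in either fit (0.29 ± 0.35 and -0.96 ± 0.40). DESeq2 did not call AGC-3 in testis either (0.22, adjusted p = 0.556).

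In sperm, 2 of 9 members were called lower than in the other tissues, beside 29.1% of features. They were tRNA-Ala-AGC-3 (-1.62 ± 0.47, edgeR, adjusted p = 0.00123) and tRNA-Ala-TGC-2 (-1.29 ± 0.41, 0.00325). Within series 1, AGC-3 (-2.56 ± 0.47), AGC-2 (-2.06 ± 0.45), TGC-2 (-1.92 ± 0.40) and AGC-4 (-1.02 ± 0.45, adjusted p = 0.0372) were called lower in sperm, beside 27% of features. RLE size factors, used in edgeR in place of TMM scaling, shift the median feature of this contrast by 1.37 (log2). With them neither of the first 2 was called in the fit of all libraries, and the values were -0.16 for AGC-3 and 0.21 for TGC-2.

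**Figure D4:**
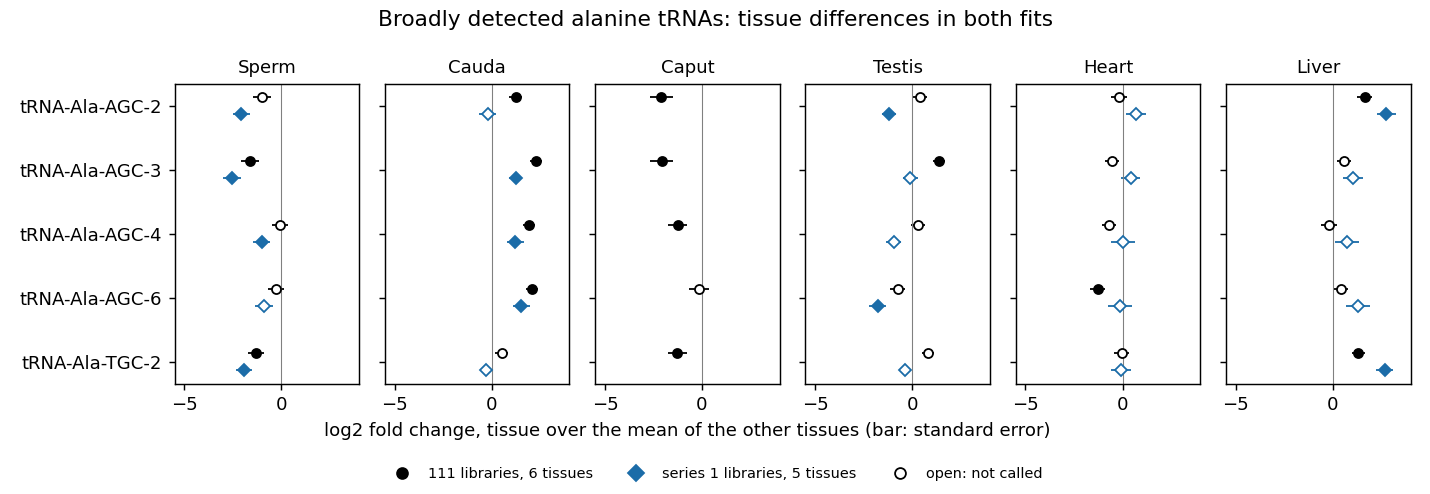
Log2 fold change of each tissue over the mean of the other tissues for 5 broadly detected members, with standard errors, in the fit of all libraries (circles) and in the fit of series 1 (diamonds, no caput); filled symbols were called. The series 1 values lie to the left of the others in sperm, cauda and testis and to the right in liver.

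The path of sperm from testis through caput and cauda was followed with 3 pairs of tissues. Sperm had less of the testis set than testis itself. The ratio of sperm to testis reads per sequenced read was 0.00609 for tRNA-Ala-TGC-5 (4 against 2597 reads, 0.00166 to 0.0156), and tRNA-Ala-TGC-6 gave 0.0198 (6 against 1201, 0.00724 to 0.0431). tRNA-Ala-CGC-3 gave 0.00857 (2 against 923, 0.00104 to 0.0310) and tRNA-Ala-TGC-7 gave 0.00412 (1 against 961, 0.000104 to 0.0230). For comparison, the ratio of tRNA-Ala-AGC-4 was 0.289 (106 against 1450, 0.235 to 0.352) and its fitted log2 fold change of -0.30 ± 0.46 did not pass the test (adjusted p = 0.549). As the testis set passed the filter only through testis, no test of it is given in this pair. Of the other members, AGC-3 (-2.50), TGC-2 (-1.73) and AGC-2 (-1.16) were called lower in sperm than in testis with all libraries, beside 57.2% of features. Within series 1, which holds every sperm and testis library, AGC-3 (-1.96) and TGC-2 (-1.24) were called, beside 51.4% of features, and AGC-2 was not called (-0.70 ± 0.49, adjusted p = 0.178).

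Against cauda, 5 of 9 members were called lower in sperm, beside 26.3% of features, and the same 5 were called within series 1, beside 21.2%. They were AGC-3 (-3.25 ± 0.49, edgeR, adjusted p = 1.31e-08), AGC-6 (-1.95 ± 0.49, 0.000602), AGC-2 (-1.85 ± 0.50, 0.00143), AGC-4 (-1.67 ± 0.47, 0.00225) and TGC-2 (-1.49 ± 0.47, 0.00586). Scaling moved these contrasts. With RLE size factors in edgeR the median feature shifted by 1.24 (log2) in sperm against cauda. Of these 5 members AGC-3 alone remained called, with AGC-4 at -0.68 (adjusted p = 0.190). As a share of cytosolic tRNA reads, sperm and cauda overlapped (above). tRNA-Ala-TGC-5, which passed the filter only through testis, had 4 reads in sperm and 14 in cauda, and no test of it is given in this pair.

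Cauda exceeded caput in AGC-2, AGC-3, AGC-4, AGC-6 and TGC-2, beside 34.8% of features called higher. tRNA-Ala-AGC-3 had a log2 fold change of 3.64 ± 0.59 (edgeR, adjusted p = 3.66e-08), AGC-2 of 2.77 ± 0.64 (7.37e-05), AGC-4 of 2.66 ± 0.54 (7.78e-06), AGC-6 of 1.86 ± 0.53 (0.00118) and TGC-2 of 1.47 ± 0.52 (0.0110). Summed over libraries, the 10 members had 2995 reads in cauda and 100 in caput, a ratio of 9.99 (8.18 to 12.3). tRNA-Ala-TGC-5 and TGC-6, which passed the filter only through testis, had 14 and 8 reads in cauda against 0 in caput, where 3 reads would stand for 4.34 RPM, and nothing is read from their fitted values. Every cauda library is in series 1 and every caput library in series 2, so the tissues and the series cannot be told apart in this pair.

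On the low-protein diet AGC-4 and TGC-2 in liver, and AGC-2, AGC-4 and AGC-6 in heart, were called lower than on the control diet. tRNA-Ala-AGC-4 in liver had 39.96, 0, 0, 18.5 and 5.88 RPM on LP, against 182, 970, 257 and 847 RPM on C. The groups did not overlap. The log2 fold change fitted with edgeR was -5.39 ± 0.92, and 12 reads against 1057 gave a ratio of 0.0151 (0.00778 to 0.0265). tRNA-Ala-TGC-2 in liver had 0, 0, 0, 18.5 and 14.7 RPM on LP, against 363, 473, 358 and 494 RPM on C, again without overlap (-4.85 ± 0.85). These were both members tested in liver, beside 25.9% of 205 features called lower on LP. TGC-2 passed the filter on low counts only through the control-diet libraries, in which it is high, and the passing of AGC-4 rested on them. Their calls are therefore not read as support, no adjusted p is given, and the reads above stand as a description.

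In heart, tRNA-Ala-AGC-4 had 5.66, 16.0, 68.5, 27.9 and 2.13 RPM on LP, against 82.0, 91.1, 105, 110 and 114 RPM on C (-3.13 ± 0.59, edgeR, adjusted p = 2.99e-07). tRNA-Ala-AGC-6 had 0 reads in all 5 LP hearts, against 138 reads in the 5 C hearts at 18.5 to 31.3 RPM. It was at least 8.39-fold lower on LP with a floor of 3 reads over the group. tRNA-Ala-AGC-2 had 3 reads on LP and 134 on C, a ratio of 0.123 (0.0250 to 0.366). The groups did not overlap for these 3 members, which were 3 of 4 tested, beside 41.7% of 242 features called lower on LP. AGC-2 and AGC-6 passed the filter on low counts only through the control-diet hearts, in which they are high. Their calls and the count of 3 are therefore not read as support, and no adjusted p is given for them. Leaving out C replicate 2, 3, 4 or 5 of heart took AGC-2 and AGC-6 below the filter on low counts and lowered the members called on LP in all tissues to 3, against 5 with every library. The fourth, tRNA-Ala-TGC-2, had 0, 10.7, 34.2, 37.2 and 14.9 RPM on LP, against 23.8, 30.1, 23.6, 13.6 and 25.9 RPM on C, and these groups overlapped.

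**Figure D5:**
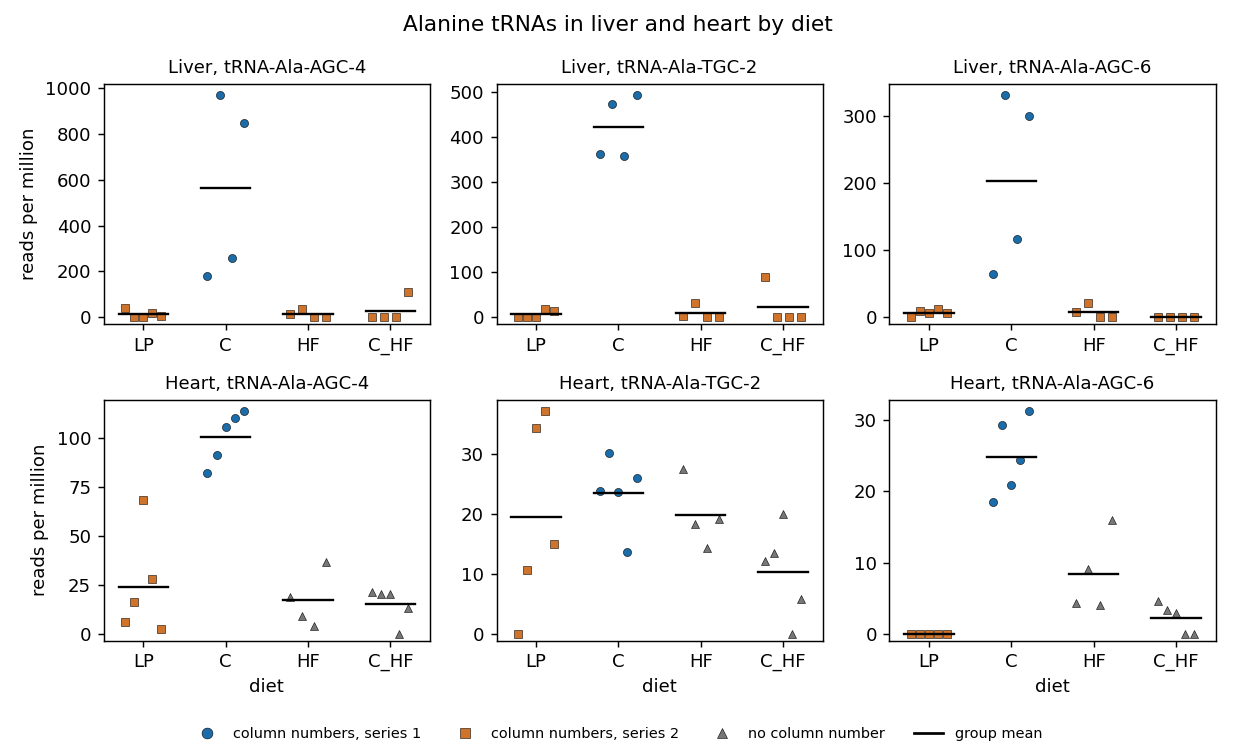
RPM of AGC-4, TGC-2 and AGC-6 in each library of liver (top) and heart (bottom) by diet, with group means as lines and the series of column numbers as markers (n = 4 or 5 per diet). The control-diet libraries stand above all others for AGC-4 and AGC-6 in both tissues and for TGC-2 in liver, and they are the only libraries of liver and heart in series 1.

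The control-diet libraries stood apart from the high-fat pair as well as from LP. In liver the family held 0.0113% to 0.0241% of cytosolic tRNA reads on LP, 0 to 0.0414% on HF and 0.0180% to 0.0399% on C_HF, against 0.153% to 0.321% on C. In heart it held 0.00641% to 0.0438% on LP, 0.0127% to 0.0353% on HF and 0 to 0.0295% on C_HF, against 0.0720% to 0.106% on C. Set against the high-fat control diet in place of C, LP gave a log2 fold change of -0.03 ± 2.13 for AGC-4 in liver (adjusted p = 0.987) and -0.67 ± 0.68 in heart (adjusted p = 0.426), and no member was called in either tissue. In that comparison 0.0% of features were called in liver and 41.7% in heart. The 4 C_HF livers held 6279 to 22145 reads each. Together they had 5 alanine tRNA reads, 1 of them of AGC-4, so liver comparisons with C_HF rest on few reads. The same members were called higher on the control diet than on the high-fat control diet. They were AGC-4 (5.35 ± 1.32) and TGC-2 (4.09 ± 1.13) in liver and AGC-2, AGC-4 and AGC-6 in heart. Beside them, 20.0% of features in liver and 28.1% in heart were called higher on C. Apart from AGC-4 in heart, these members passed the filter through the C libraries. Both comparisons share those libraries, so the second does not stand as a separate result. For the LP difference in liver and heart, diet and the series of column numbers cannot be told apart.

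Other tRNAs moved with the family in these 2 comparisons. In heart 74 of 89 other cytosolic tRNAs were called lower on LP and 4 higher, and in liver 50 of 68 were called lower and 0 higher. Scaled to cytosolic tRNA reads only, which shifts the median feature by 2.58 (log2) in heart, AGC-4 (-0.59, adjusted p = 0.396) and AGC-2 (-1.06, adjusted p = 0.231) were no longer called in heart. AGC-6 stood at -6.45, and TGC-2 was called higher on LP (1.39 ± 0.47, edgeR, adjusted p = 0.0133). The liver members stood at -3.40 (AGC-4) and -3.12 (TGC-2) under that scaling, with a median shift of 1.95. As above, no test is given for these liver members or for AGC-6 in heart, which the filter admitted through control-diet libraries.

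In testis, cauda and sperm no member was called on LP, and none of the features tested passed (0.0% of 447, 218 and 180). At an unadjusted p under 0.05, 2 of 9 members in testis, 1 of 3 in cauda and 0 of 1 in sperm differed, beside 39, 45 and 0 features. In testis tRNA-Ala-TGC-5 had 510, 1113, 543, 939 and 322 RPM on LP, against 1008, 895, 246, 665 and 1375 RPM on C, with overlap (-1.24 ± 0.59, edgeR, adjusted p = 0.522). tRNA-Ala-TGC-7 had the lowest unadjusted p of the family in testis (0.00363), at -1.67 ± 0.52 with an adjusted p of 0.522. tRNA-Ala-CGC-3 in testis gave -1.23 ± 0.69 (adjusted p = 0.561) and AGC-4 -1.37 ± 0.77 (0.561). In cauda the family share was 0.0687% to 0.162% of cytosolic tRNA reads on LP, against 0.222% to 0.434% on C. These groups, both in series 1, did not overlap. On C_HF, also in series 1, the share in cauda ran from 0.0958% to 0.436% and overlapped LP. How many other features separate LP from C in this way was not counted. AGC-4 in cauda, at 108, 249, 85.4 and 289 RPM on LP against 234, 298, 696.5, 853 and 1226 RPM on C, did not pass the test (-1.80 ± 0.76, edgeR, adjusted p = 0.172). In sperm AGC-4 gave -0.31 ± 0.94 (adjusted p = 0.987). No member passed the filter in caput, where the 10 members had 100 reads in all, so a diet effect there was not detectable at this depth.

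The high-fat diet called 0 members in any tissue by edgeR. DESeq2 also called 0. At an unadjusted p under 0.05 by edgeR there were 0 of 2 members tested in liver, 0 of 4 in heart, 0 of 9 in testis, 0 of 3 in cauda and 0 of 1 in sperm. Over all features the counts were 53 of 205, 31 of 242, 19 of 447, 18 of 218 and 6 of 180 in the same order. With so few members tested, these 0 counts say little about the family. Of all features, 2.93% were called in liver, 1.24% in heart and 0.69% in caput, and 0.0% in testis, cauda and sperm. For tRNA-Ala-AGC-4, HF against C_HF gave 1.54 ± 1.63 in liver (adjusted p = 0.506), -0.14 ± 0.56 in heart (0.991), 1.03 ± 1.15 in testis (0.804), 0.01 ± 0.69 in cauda (0.993) and -0.73 ± 1.11 in sperm (0.927). tRNA-Ala-TGC-5 in testis gave -0.51 ± 0.68 (adjusted p = 0.819) and tRNA-Ala-CGC-3 gave -0.20 ± 0.96 (0.941). The standard errors of AGC-4 in liver, testis and sperm were 1.63, 1.15 and 1.11 on the log2 scale, so a 2-fold change either way was not detectable there.

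A test of whether the LP effect differed among tissues called 4 members, AGC-2 (adjusted p = 0.00172), AGC-4 (0.00383), AGC-6 (0.0166) and TGC-2 (6.40e-05), beside 35.9% of 410 features. Scaled to cytosolic tRNA reads, 1 member was called, and without the libraries under 5000 reads 3 members were. The control-diet libraries of liver and heart enter this test too. For HF it called 0 of the 4 members tested, beside 3.17% of 379 features.

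Other tRNAs whose anticodon begins with A, and which carry inosine at that base like the AGC alanine tRNAs, were counted beside the family. Of 15 tested, 10 were called lower and 0 higher in caput (median log2 fold change -1.51), 6 higher and 0 lower in cauda (0.74), and 6 higher and 0 lower in testis (0.59). Of all 460 features tested, 25.9% were called lower in caput, 31.3% higher in cauda and 54.8% higher in testis. The median over all features was -1.09 in caput, -0.08 in cauda and 1.29 in testis. On LP, 17 of 17 were called lower in heart (median -4.29) and 9 of 10 in liver (-3.72), against medians over all features of -0.29 and 0.13. Valine and glycine tRNAs, like those of alanine, fill a 4-codon box starting with G. On LP, 13 of 16 were called lower in heart (-2.94) and 6 of 10 in liver (-1.84). Over all features, 41.7% were called lower on LP in heart and 25.9% in liver. Over the cytosolic tRNAs outside the family the shares were 83.1% and 73.5%.

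The features outside the family most like its leading members were found over the mean log2 CPM (counts scaled to library size) of the 24 groups. tRNA-Ala-AGC-4 was nearest to tRNA-Met-CAT-1 (Pearson r = 0.894), tRNA-Thr-CGT-1 (0.885) and tRNA-Ile-AAT-1 (0.872). tRNA-Ala-CGC-3 was nearest to tRNA-Cys-GCA-7 (0.968), tRNA-Lys-CTT-1 (0.965) and tRNA-His-GTG-1 (0.960). tRNA-Ala-TGC-5 was nearest to tRNA-Cys-GCA-7 (0.980), the small nuclear RNA Gm22973 (0.962) and a piRNA precursor (0.961). These correlations describe 24 groups that share libraries and depth within a group, and the last 2 sets follow the contrast of testis with everything else.

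The mitochondrial alanine tRNA, whose sequence is given above, had a different distribution. It averaged 36712 ± 13040 RPM in heart (SD, n = 19), 23970 ± 13957 in liver (n = 17), 12690 ± 6931 in caput (n = 19), 5574 ± 2838 in cauda (n = 18), 4582 ± 1672 in testis (n = 19) and 4449 ± 4053 in sperm (n = 19). Heart (3.92 ± 0.21, edgeR, adjusted p = 3.43e-38) and liver (1.995 ± 0.25, 2.34e-11) were higher than the other tissues. Testis (-2.22 ± 0.30, adjusted p = 2.10e-11), cauda (-1.38 ± 0.29, 1.62e-05) and sperm (-2.52 ± 0.31, 7.40e-13) were lower. Within series 1 heart stood at 5.54 ± 0.38 and was called higher, and testis (-2.18 ± 0.28) and sperm (-1.95 ± 0.27) were called lower. Liver, with its control-diet libraries alone, stood there at -0.52 ± 0.48 (adjusted p = 0.542) and cauda at -0.89 ± 0.30 (adjusted p = 0.0102), short of the log2 change of 1, so neither was called. On LP it was higher in liver, with 33888, 42164, 44059, 42366 and 34098 RPM against 5828, 6820, 3404 and 10597 RPM on C (2.85 ± 0.78, adjusted p = 0.00671), a contrast in which the series of column numbers differ too. In caput, where both diets are in series 2, it had 4781, 19974, 7675, 10924 and 8654 RPM on LP, against 21224, 22585, 23273, 15131 and 25555 RPM on C. The groups overlapped, and it was called lower on LP (-1.31 ± 0.48, adjusted p = 0.0224), beside 26.9% of 145 features. The LP values stand for 7 to 177 reads, in libraries of 912 to 16203 reads.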

How the data were processed

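Raw read counts per entry and library were taken as deposited by the authors. The submitters' processing notes name cutadapt, DESeq2 and mm10 without versions, and no source used here gives the aligner or the counting rule. Of 1268 entries, 226 were dropped as repeats of another entry: second names of mitochondrial tRNAs, copies of 5S ribosomal RNA, and entries of at least 50 reads whose counts differed by under 5% from a kept entry, which left 51.1% of the summed counts. The end of the column names (gt65) is not explained in the labels. Levels (RPM) are reads scaled to the library total over the kept entries. Library depth ran from 827 to 1467880 reads, and exact 95% intervals and the floor of 3 reads cover counting error only, since no molecular identifiers are described.

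Tests used edgeR 4.0.16 in R 4.3.3 (quasi-likelihood, robust, TMM scaling, filterByExpr over the 24 groups for tissues and within each tissue for diets), with Benjamini-Hochberg adjustment over all features of a contrast. Tissue calls need an adjusted p under 0.05 and a log2 change of at least 1, diet calls an adjusted p under 0.05. Standard errors were derived from the F statistic. The tissue filter was set to the 24 groups after filtering over 6 tissues left few members. The scripts were tested on simulated data. DESeq2 1.42.0 served as the alternative tool. The members, lists and tests were chosen with earlier results of these data known. Named genes are the 10 members, the mitochondrial alanine tRNA and the 3 features most like each of 3 leading members.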

Additional observations from a re-analysis of the deposited data

Results flagged for a closer look

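Single libraries stood far from the rest of their group in 5 of 52 checks, where chance gives about 1 in 20. Sperm on the high-fat control diet had an alanine tRNA share of 0.441% of cytosolic tRNA reads in replicate 1, against 0.143% to 0.202% in the other 4. For tRNA-Ala-AGC-4, replicate 4 of high-fat control liver had 111.2 RPM and replicate 5 of low-protein caput had 74.6 RPM, against 0 in the others of each group, and each of these values is 1 read, in libraries of 8992 and 13404 reads. Replicate 4 of high-fat cauda had 1289 RPM of AGC-4, against 105 to 274.5, and replicate 3 of low-protein sperm had 976 RPM, against 33 to 199.

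The effect of the low-protein diet differed among tissues by the interaction test of edgeR for tRNA-Ala-AGC-2 (adjusted p = 0.00172), AGC-4 (0.00383), AGC-6 (0.0166) and TGC-2 (6.40e-05). Scaled to cytosolic tRNA reads, 1 member was called. The control-diet libraries of liver and heart, which enter this test, are the only ones of those tissues in series 1.

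Outside the 10 members, tRNA-Ala-TGC-8 had 201 reads and tRNA-Ala-CGC-4 had 16, all in testis. The locus entries tRNA-Ala-AGC-7-1 and tRNA-Ala-CGC-7-1 had 12 and 19 reads, of which 10 and 19 were in testis.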

How the results depend on the processing

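Over the scalings, filters, tools and left-out replicates tried, the calls summed over the 6 tissue contrasts, in which a member can count several times, numbered 14 to 24 (18 in the reported fit), and those over the 3 sperm and epididymis pairs 14 to 22 (19). Both sums include calls of the testis set, which the filter fixed. A filter over the 6 tissues, which tests few members, left 4 and 4. Low-protein calls (5 as reported) numbered 11 with no filter on low counts, 8 with only the 2 diets compared, 0 with the high-fat control in place of the control diet, and 3 to 7 when a replicate was left out. All low-protein calls as reported, except AGC-4 in heart, came from members that the filter admitted through control-diet libraries. The high-fat count was 0 throughout. The interaction count for low protein was 1 when scaled to cytosolic tRNAs, against 4. Directions turned for TGC-2 in sperm under RLE size factors (0.21) and in liver without the control-diet libraries of liver and heart (-0.83). They also turned for TGC-5 and TGC-6 in cauda against caput under DESeq2 (-0.092 and -0.65). Within series 1 they turned for AGC-3 in testis (-0.11) and AGC-2 in cauda (-0.20). Where no value above shows the cause, the cause was not tested. The filter over 6 tissues, the high-fat control swap, the fits without control-diet liver and heart and those within series 1 were chosen after seeing the data. Counting every alanine entry as deposited, which repeats the reads of TGC-2 under TGC-3 and adds 8 further entries, gave AGC, CGC and TGC shares of 48.9%, 3.12% and 47.98% in liver, 61.3%, 1.88% and 36.8% in heart and 78.3%, 2.62% and 19.1% in cauda, and 82.8% AGC in sperm. Whether replicate numbers pair libraries could not be settled, since correlations do not show which libraries share a mouse. By title number, 62 of 270 pairs of the same diet in different tissues correlated above 0.1. Within a tissue, 23 of 52 pairs of a diet and its control did. With the replicate block the counts were 18 or 17 for tissues, 19 for the pairs, 5 for low protein and 0 for high fat. Depth limits caput most, where the family had 100 reads.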
